A study of Mus musculus with 6 samples.

Results

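Transcripts of tRNA modification enzymes, listed apart from the writers of N1-methyladenosine (m1A), were followed in cultured mouse macrophages differentiated from bone marrow (bone marrow derived macrophages, BMDMs). The set was a named list of 54 genes, taken from the table of gene counts by gene symbol, and all 54 were among the 16519 genes in the table. It covered methyltransferases, an acetyltransferase with its adaptor, pseudouridine and dihydrouridine synthases, wobble uridine enzymes, adenosine deaminases, queuosine, t6A and i6A enzymes, wybutosine enzymes and the tRNA-His guanylyltransferase. All 54 passed the filter on low counts, so that every member was tested.

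RNA was sequenced from 3 libraries labelled TRMT61A-KO, from mice with floxed Trmt61a alleles and LysM-Cre (Trmt61a f/f LysM-Cre), and from 3 libraries labelled TRMT61A-WT, from mice with the floxed alleles and no Cre (Trmt61a f/f). Both genotypes carried the floxed alleles, and only the KO carried Cre. LysM-Cre is a recombinase placed in Lyz2, a lysozyme gene of myeloid cells, so deletion is expected in myeloid cells and need not reach every cell. The labels give no age and leave unsaid if the 3 libraries per genotype stem from different mice or culture dishes. The p-values therefore reflect only how far these libraries spread, part of which may be technical. The design bears on whether transcript levels of the other modification genes differ in macrophages in which the gene of an m1A writer was targeted. Since only the KO carried Cre, loss of Trmt61a and the presence of Cre in Lyz2 cannot be told apart. Neither its protein nor m1A was measured in these libraries.

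Transfer RNAs carry more kinds of chemical modification than any other RNA, and most are placed after transcription by dedicated enzymes. Modifications in the anticodon loop, such as those of the wobble uridine, adjust decoding of the messenger RNA, and those in the body of the molecule support folding and stability. Several of the enzymes are complexes of a catalytic subunit with a partner, such as Mettl1 with Wdr4 or Adat2 with Adat3. The m1A writer is itself such a complex, in which Trmt61a encodes the catalytic subunit and Trmt6 the partner.

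The targeted gene was checked first. Trmt61a had 0.530, 0.755 and 0.539 counts-per-million units (CPM, here of TMM-scaled library totals) in KO 1 to KO 3 and 4.96, 3.89 and 5.06 CPM in WT 1 to WT 3. Its log2 fold change (KO minus WT, as everywhere below) was -2.92, with a standard error (SE) of 0.28 (edgeR adjusted p = 0.00219). The KO libraries all lay far below the WT libraries. Trmt6 had a log2 fold change of -0.03, with a 95% interval from -0.23 to 0.17. The libraries held between 37021855 and 41033179 gene counts, and 3 counts corresponded to between 0.0731 and 0.0813 CPM, a floor that covers counting error only. The macrophage genes Csf1r, Adgre1 and Cd68 lay between 1755 and 5117 CPM in every library. Of the same list, Timd4 lay between 0.318 and 0.538 CPM in KO and between 1.14 and 3.65 CPM in WT. Cd163 lay between 8.41 and 9.25 CPM in KO and between 22.3 and 30.6 CPM in WT. Lyz2 had between 8485 and 10769 CPM in KO and between 17039 and 21196 CPM in WT. The T cell genes Cd3e and Cd3d reached at most 0.122 CPM, but Cd4, listed with them, lay between 68.9 and 83.2 CPM. The stromal genes Col1a1 and Col1a2 lay between 31.9 and 111 CPM. Genes of granule-bearing neutrophils were present, with a summed level of 11 markers between 1623 and 2990 CPM.

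None of the 54 genes differed between KO and WT at an adjusted p under 0.05 in edgeR's quasi-likelihood test, where the adjustment ran over all 12605 genes tested. Of all genes tested, 4 passed (0.0317%), namely Trmt61a, Lyz1, Lyz2 and Cd163. The adjusted p was 0.999949 for each of the 54 genes. At an unadjusted p under 0.05 there were 3 members (5.56%), against 391 genes (3.1%) over the whole table. Thg1l was the 1 member of these 3 that was higher in KO (1.46% of all genes), and Trmt10b and Dus4l were the 2 that were lower (1.64% of all genes). In DESeq2 and in limma voom, 0 members passed and the same 3 had an unadjusted p under 0.05.

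For 7 members (13%) the 3 KO values and the 3 WT values did not overlap, against 8.65% of all genes tested. These were Thg1l, Elp4 and Mettl1, higher in KO (4.05% of all genes), and Trmt10b, Dus4l, Nsun3 and Tyw5, lower in KO (4.59% of all genes). Without overlap, an exact permutation test (two-sided) always returns p = 0.1, the lower limit with 3 against 3 libraries. That value was thus fixed for the 7 by how they were picked and adds nothing to their count. The log2 fold change lay above 0 for 29 members and below 0 for 25. Its median was 0.02, beside 8.4e-05 over all genes, and its median size without regard to sign was 0.09, beside 0.08 for the 7466 genes in the same range of mean CPM. In size, 33 members (61.11%) stayed under 0.1 on the log2 scale, as did 61.44% of all genes, and 4 (7.41%) exceeded 0.25 (Trmt10b, Dus4l, Thg1l and Adat2), against 14.61% of all genes. These 2 shares of all genes are not matched for level, since all genes reach down to 0.156 mean CPM and the members to 1.94. The plot of log2 fold changes by role shows all 54 genes with their intervals.

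**Figure D1:**
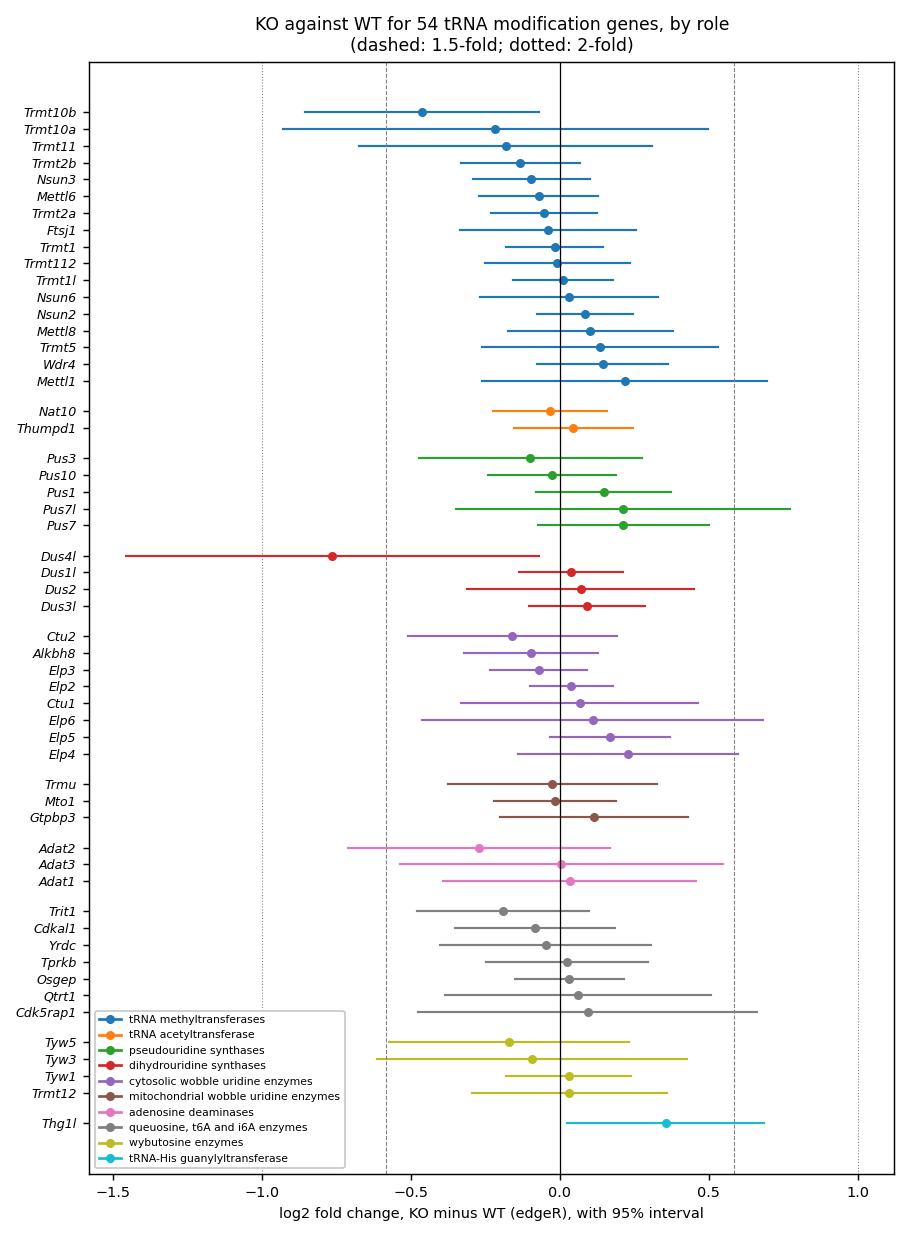
Log2 fold change of each of the 54 genes, KO minus WT, with its 95% interval from edgeR, grouped and coloured by role (x axis, log2 scale; the dashed lines mark 1.5-fold and the dotted lines 2-fold). The intervals of Trmt10b, Dus4l and Thg1l exclude 0, none of the 3 passes after adjustment, and 53 of the 54 intervals lie within 2-fold.

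The intervals state which differences these libraries leave room for. For 42 members (77.8%) the 95% interval lay within 1.5-fold in either direction, and for 53 within 2-fold. The share within 1.5-fold was 80.4% among all genes at 1 CPM or more. Dus4l was the exception at 2-fold, with an interval from -1.46 to -0.07. It was also the member with the fewest counts, 41 in KO 1, whereas 50 members had at least 100 counts in every library. The summed level of the 54 genes was 897, 891 and 905 CPM in KO 1 to KO 3 and 889, 880 and 906 CPM in WT 1 to WT 3. These sums overlapped, with a mean of 898 ± 7.05 CPM in KO (SD, n = 3) and of 891 ± 13.2 CPM in WT (SD, n = 3).

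Leaving out libraries changed which members stood apart. Without KO 1 only Trmt10b had an unadjusted p under 0.05 (5.34% of all genes did), without KO 2 only Dus4l (2.63%), without KO 3 only Thg1l (2.39%) and without WT 1 only Trmt10b (2.36%), which is 1 member in each case. Without WT 2 there were 2, Dus4l and Trmt10b (2.91% of all genes), and without WT 3 there were 2, Elp5 and Thg1l (4.13%). The members without overlap numbered 14 without KO 1 (25.9%, against 21.6% of all genes), 14 without KO 2 (25.9% against 16.6%) and 12 without KO 3 (22.2% against 16.3%). They numbered 10 without WT 1 (18.5% against 15.6%), 11 without WT 2 (20.4% against 17.6%) and 10 without WT 3 (18.5% against 19.8%). The share of members thus lay above that of all genes in 5 of the 6 cases and below it without WT 3. These cases share most of their libraries and are not separate results. Members without overlap over all 6 libraries stayed without overlap in each case, which removing a library makes all but certain. Fewer libraries separate more easily by construction. The median log2 fold change of the members was -0.0028 without KO 1 and -0.027 without WT 1, so its sign was not fixed.

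The methyltransferases, 17 genes, held 7 members above 0 and 10 below, and their median was -0.02 on the log2 scale, with a range from -0.46 to 0.22. Trmt10b, which belongs to the family that methylates position-nine purines of tRNA, lay on chr4:45297068-45316134 (plus strand, RefSeq GRCm38.p6). Its levels were 5.73, 4.94 and 4.82 CPM in KO 1 to KO 3 and 6.10, 6.86 and 8.38 CPM in WT 1 to WT 3. Each KO value lay below each WT value, with KO 1 and WT 1 the nearest to each other and WT 3 the highest. The log2 fold change of Trmt10b was -0.46 with an SE of 0.18 (edgeR adjusted p = 0.999949). Trmt10a, another member of that family, had a log2 fold change of -0.22 with an SE of 0.33 and overlapping values. Trmt10c, also of that family, was listed among the m1A writers, so the family falls on both sides of that division. Which purine the Trmt10b enzyme methylates was not measured.

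Nsun3 encodes the enzyme that methylates the wobble cytosine of mitochondrial tRNA-Met, the first step towards its formylcytosine. It had 17.4, 17.0 and 17.6 CPM in KO and 18.0, 18.3 and 19.3 CPM in WT. The groups did not overlap, but the gap between the closest libraries was narrow, and the log2 fold change of Nsun3 was -0.10 with an SE of 0.09. Mettl1, the catalytic subunit of the tRNA N7-methylguanosine methyltransferase, had 3.05, 4.004 and 3.40 CPM in KO and 2.98, 2.96 and 3.04 CPM in WT. The lowest KO library almost touched the highest WT library, and the log2 fold change of Mettl1 was 0.22 with an SE of 0.22. Wdr4, its non-catalytic partner, had a log2 fold change of 0.14 with an SE of 0.10.

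Trmt112, a small protein that activates several methyltransferases including the Trmt11 and Alkbh8 enzymes, had 26.0, 22.3 and 25.7 CPM in KO and 22.0, 28.6 and 23.9 CPM in WT. The groups overlapped, WT holding both the lowest and the highest library, and its log2 fold change was -0.01 with an SE of 0.11. Trmt11, a guanosine N2-methyltransferase that works with Trmt112, had -0.18 with an SE of 0.22. Nsun2, which places 5-methylcytosine in many cytosolic tRNAs, had 0.08 with an SE of 0.07. Of the remaining methyltransferases, Trmt2b, a mitochondrial uridine methyltransferase, had -0.13, and Trmt5, which methylates the guanosine next to the anticodon, had 0.13. Mettl8, a mitochondrial 3-methylcytidine enzyme, had 0.10, and Mettl6, which makes 3-methylcytidine in tRNA-Ser, had -0.07. Trmt2a (-0.05), Ftsj1 (-0.04), Trmt1 (-0.02), Trmt1l (0.01) and Nsun6 (0.03) lay closer to 0.

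**Figure D2:**
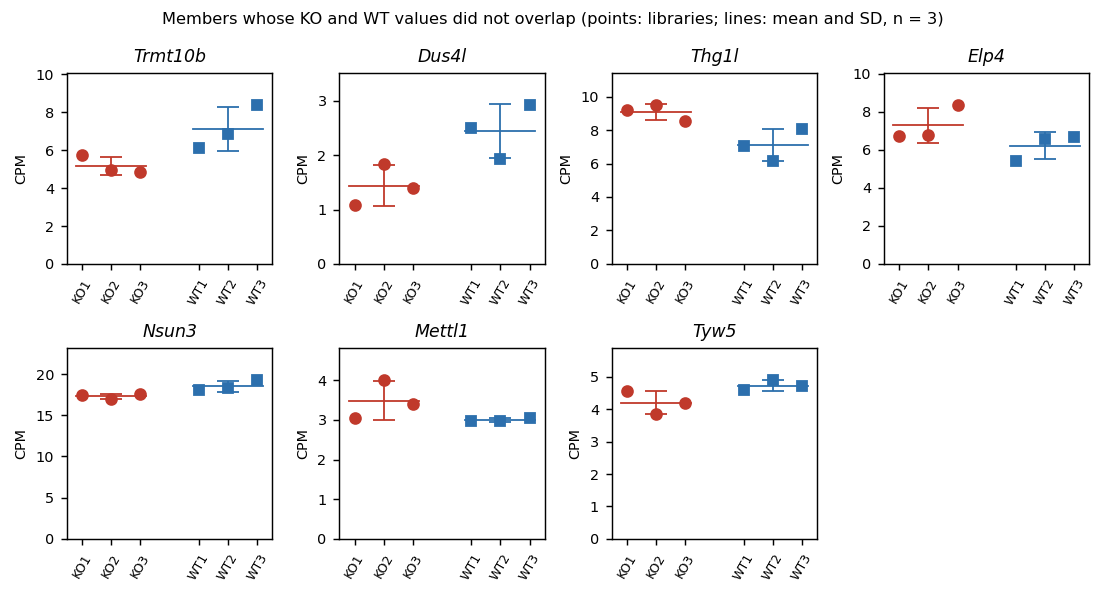
Levels in CPM (y axis, starting at 0) of the 7 genes whose KO and WT values did not overlap, with 1 point per library and lines for the mean and SD of 3 libraries. The gap between the genotypes is narrow for Nsun3, Mettl1, Elp4 and Tyw5, and wider for Trmt10b, Dus4l and Thg1l in proportion to their levels.

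Nat10, the acetyltransferase that makes N4-acetylcytidine, and Thumpd1, the adaptor that brings it to tRNA, had log2 fold changes of -0.03 (SE 0.09) and 0.04 (SE 0.09). Thumpd1 had 35.2, 40.0 and 39.9 CPM in KO and 41.1, 33.3 and 37.2 CPM in WT. The WT libraries spanned the KO libraries, so the values overlapped throughout.

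Among the 5 pseudouridine synthases the median log2 fold change was 0.15, with 3 above 0 and 2 below and a range from -0.10 to 0.21, and 0 of the 5 had an unadjusted p under 0.05. Pus7 had the smallest p of these genes. Its levels were 10.6, 11.5 and 13.1 CPM in KO and 10.98, 9.37 and 10.01 CPM in WT, a log2 fold change of 0.21 with an SE of 0.13. KO 1 lay below WT 1, so the groups overlapped. Pus1, which modifies both cytosolic and mitochondrial tRNAs, had 16.9, 17.2 and 17.4 CPM in KO and 14.96, 17.2 and 14.3 CPM in WT. Its KO libraries agreed closely, WT 2 lay among them, and the log2 fold change of Pus1 was 0.15 with an SE of 0.10. Pus7l had 0.21 (SE 0.25), Pus10 -0.03 (SE 0.10) and Pus3 -0.10 (SE 0.17).

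Dihydrouridine synthases reduce uridines of the D loop and the variable loop. Dus4l, on chr12:31640050-31654866 (minus strand), had 1.09, 1.84 and 1.40 CPM in KO and 2.49, 1.93 and 2.92 CPM in WT. KO 2 and WT 2 lay almost side by side, and the other libraries lay further apart. The log2 fold change of Dus4l was -0.76 with an SE of 0.32 (edgeR adjusted p = 0.999949). The other 3 synthases lay on the other side of 0. Dus3l had 39.1, 34.8 and 31.1 CPM in KO and 32.1, 33.8 and 32.7 CPM in WT, a log2 fold change of 0.09 with an SE of 0.09. The KO libraries of Dus3l spanned all of the WT libraries, and Dus2 (0.07) and Dus1l (0.04) overlapped as well. With the pseudouridine synthases the dihydrouridine synthases made 9 genes, with 6 above 0 and 3 below and a median of 0.07.

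The cytosolic wobble uridine is modified by Elongator, then by Alkbh8, and thiolated by the Ctu1 and Ctu2 complex. The 8 genes of this route that were listed had a median log2 fold change of 0.05, with 5 above 0, 3 below and a range from -0.16 to 0.23. Elp5, an Elongator subunit of the accessory subcomplex, had 23.3, 23.7 and 25.02 CPM in KO and 20.5, 20.02 and 23.6 CPM in WT. WT 3 lay between KO 1 and KO 2, so the groups overlapped by 1 library, and the log2 fold change of Elp5 was 0.17 with an SE of 0.09.

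Elp4, of the same subcomplex, had 6.71, 6.80 and 8.35 CPM in KO and 5.42, 6.58 and 6.65 CPM in WT. KO 1 and WT 3 differed by less than the spread within either group, and the log2 fold change of Elp4 was 0.23 with an SE of 0.17. The third subunit of that subcomplex, Elp6, had 2.47, 4.61 and 3.13 CPM in KO and 3.01, 3.19 and 3.26 CPM in WT. Its KO libraries lay on both sides of the WT libraries (log2 fold change 0.11, SE 0.26).

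The core subunits gave the tightest values of the route. Elp2, a scaffold subunit, had 64.0, 58.6 and 62.2 CPM in KO and 58.6, 59.5 and 61.7 CPM in WT, a log2 fold change of 0.04 with an SE of 0.06. Those values overlapped fully, with a 95% interval from -0.10 to 0.18. Elp3, the catalytic subunit, had -0.07 with an SE of 0.07. Alkbh8, which completes the methoxycarbonylmethyl group, had -0.10 (SE 0.10), Ctu1 had 0.07 (SE 0.18) and Ctu2 had -0.16 (SE 0.16). In mitochondria, Gtpbp3 and Mto1 together make taurinomethyluridine and Trmu thiolates the same base. Gtpbp3 had 15.6, 13.4 and 11.9 CPM in KO and 10.6, 14.3 and 12.9 CPM in WT, a log2 fold change of 0.11 with an SE of 0.14. Mto1 had 18.6, 18.7 and 20.02 CPM in KO and 19.1, 18.1 and 20.8 CPM in WT, a log2 fold change of -0.02 with an SE of 0.09. Both overlapped between genotypes, and Trmu had -0.03 with an SE of 0.16.

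Adat2 and Adat3 form the enzyme that turns wobble adenosine into inosine, and Adat1 acts on the adenosine beside the anticodon of tRNA-Ala. Adat2, the catalytic subunit, had 5.35, 3.83 and 3.99 CPM in KO and 5.37, 4.80 and 5.75 CPM in WT, a log2 fold change of -0.27 with an SE of 0.20. KO 1 lay within the WT range and the other KO libraries below it. Adat3 had 0.00 (SE 0.25) and Adat1 0.03 (SE 0.19).

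The queuosine, t6A and i6A enzymes, 7 genes that modify the wobble guanosine or the adenosine beside the anticodon, had a median log2 fold change of 0.02 with a range from -0.19 to 0.09. Trit1, which adds the isopentenyl group of i6A, had 8.24, 9.09 and 8.20 CPM in KO and 9.03, 10.2 and 9.96 CPM in WT. KO 2 overlapped with WT 1 by a small amount, and the log2 fold change of Trit1 was -0.19 with an SE of 0.13. Osgep, the catalytic subunit of the t6A complex, had 26.9, 28.2 and 26.3 CPM in KO and 28.4, 26.7 and 24.5 CPM in WT, a log2 fold change of 0.03 with an SE of 0.08. WT spanned KO for this gene. Its partner Tprkb had 0.02, Yrdc, which makes the threonylcarbamoyl donor, -0.05, and Qtrt1, the catalytic subunit of the queuosine-inserting enzyme, 0.06. Cdkal1 and Cdk5rap1, which add methylthio groups, had -0.08 and 0.09.

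Wybutosine is the bulky guanosine derivative beside the anticodon of tRNA-Phe. Tyw5, which hydroxylates it, had 4.56, 3.85 and 4.19 CPM in KO and 4.58, 4.90 and 4.70 CPM in WT. KO 1 and WT 1 were nearly equal, and the log2 fold change of Tyw5 was -0.17 with an SE of 0.18. Tyw1, which closes the tricyclic ring, had 21.1, 23.7 and 22.2 CPM in KO and 23.6, 19.8 and 22.3 CPM in WT, a log2 fold change of 0.03 with an SE of 0.10. These ranges overlapped, and Tyw3 (-0.09) and Trmt12 (0.03) overlapped too.

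Thg1l, which adds the extra guanosine at the start of tRNA-His, was the member furthest above 0. It lies on chr11:45945305-45955503 (minus strand) and had 9.17, 9.49 and 8.57 CPM in KO and 7.02, 6.18 and 8.08 CPM in WT. The highest WT library, WT 3, came close to the lowest KO library, KO 3. The log2 fold change of Thg1l was 0.36 with an SE of 0.15 (edgeR adjusted p = 0.999949).

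Stretches directly upstream of Trmt10b and Thg1l are shown because these genes and Dus4l had the smallest p of the 54. They were taken from RefSeq promoter windows of GRCm38.p6, which run from 250 bases before to 50 bases after a gene's start, and are printed up to the annotated start of the gene. For Thg1l these are the 250 bases before it. The Trmt10b window belongs to a start further downstream, so only 150 bases of it precede the gene, and none is printed for Dus4l, whose window lies wholly within the annotated spans of Dus4l and its neighbour Cog5. Capitals mark a CCAAT box in the first and TATAAA letters (with their overlapping reverse complement) in the other.
Trmt10b, chr4:45296918-45297067, plus strand: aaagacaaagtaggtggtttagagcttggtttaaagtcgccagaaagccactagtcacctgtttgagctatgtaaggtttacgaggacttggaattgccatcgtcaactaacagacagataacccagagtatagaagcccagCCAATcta
Thg1l, chr11:45955504-45955753, minus strand: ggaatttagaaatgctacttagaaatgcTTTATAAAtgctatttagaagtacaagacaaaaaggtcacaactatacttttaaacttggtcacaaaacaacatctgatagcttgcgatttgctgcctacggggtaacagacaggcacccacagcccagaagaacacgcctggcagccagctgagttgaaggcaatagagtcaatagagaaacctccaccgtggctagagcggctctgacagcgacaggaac
Of the 54 genes, 49 had a window of the full 300 bases, and so had 10104 of all genes tested. On either strand, CCAAT was found in 20 of the 49 windows (40.8%, against 39.0% of the 10104), TATAAA in 3 (6.12% against 7.14%) and the E-box CACGTG in 6 (12.2% against 10.2%). The ETS letters CCGGAAG were found in 13 (26.5% against 18.4%), and the GC box GGGCGG in 21 (42.9% against 63.7%). The full windows of Trmt10b and Thg1l held the ETS letters, and that of Trmt10b the GC box, but not within the printed stretches. The palindromic NRF1 motif was found in 0 of 49, against 2.12% of all. A match describes letters in a window and not a bound site, and factor binding was not measured.

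Levels can be compared between genes only per length, and here as CPM per kb of exon of protein-coding transcripts. The median member had 3.71 CPM per kb, beside 7.35 over the 12283 tested genes with a length, and 15 of the 54 lay above the latter. Trmt112 led with 21.8 CPM per kb, followed by Elp2 (17.5), Dus3l (16.8), Elp5 (15.6), Nsun2 (15.1) and Thumpd1 (14.1). Of the 53 pairs of neighbours in this order, 50 had overlapping ranges over the 6 libraries. The 3 exceptions were Trmt112 above Elp2 (lowest library 19.4, highest library 18.5 CPM per kb), Trmt1 above Pus1 and Adat1 above Tyw3. At the lower end stood Trmt10a (0.707), Tyw3 (0.723), Adat1 (1.06), Dus4l (1.10) and Pus7l (1.32). Subunits of 1 complex differed in level, since Elp2, Elp5 and Elp3 (13.4) lay well above Elp4 (2.21) and Elp6 (1.46) on this scale.

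**Figure D3:**
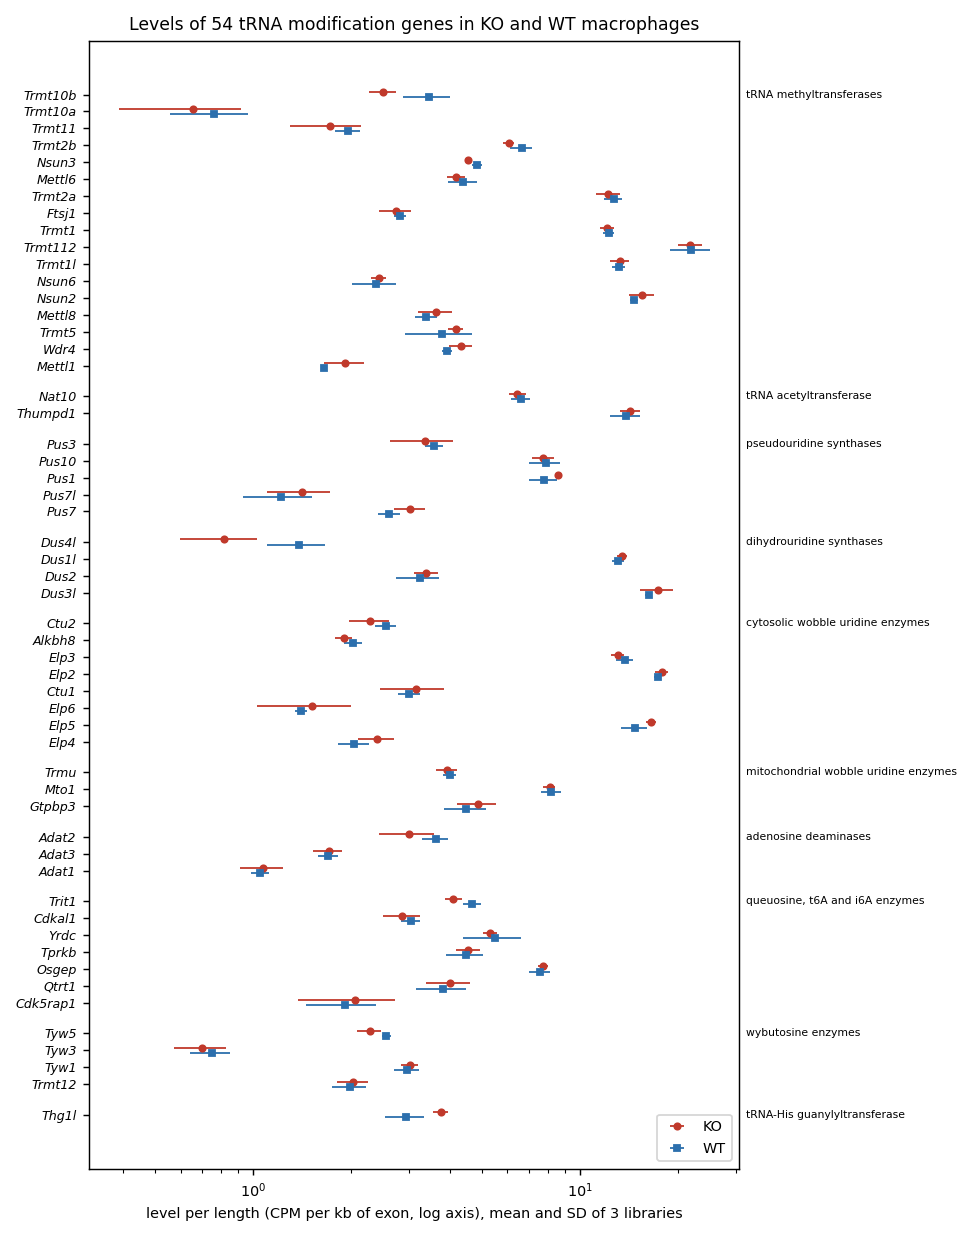
Level of each of the 54 genes per kb of exon (x axis, CPM per kb, log axis), as mean and SD of 3 KO libraries and of 3 WT libraries, grouped by role. The genes range from 0.707 to 21.8 CPM per kb on average, and the KO and WT points of most genes lie within each other's error bars.

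Ratios of 12 pairs of genes whose products work together, computed per length in each library, were compared between genotypes. The pairs were chosen after the values had been seen. The exact two-sided permutation p was 0.4 or higher for each, with adjusted values of 0.84 or higher over the 12 pairs. Mettl1 over Wdr4 was 0.444 ± 0.0762 in KO and 0.420 ± 0.0204 in WT (SD, n = 3 each), and Adat2 over Adat3 was 1.80 ± 0.550 in KO and 2.14 ± 0.255 in WT. Ctu1 over Ctu2 was 1.89, 1.46 and 0.917 in KO and 1.19, 1.18 and 1.16 in WT. The KO libraries of that pair lay on both sides of the closely grouped WT libraries.

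How far a member varied among libraries of 1 genotype was described by the SD of log2(CPM + 0.5) around the genotype mean. The median over the 54 genes was 0.131, the same as for genes in the same range of mean CPM. Trmt10a (0.419), Cdk5rap1 (0.370), Pus7l (0.300), Elp6 (0.283) and Dus4l (0.264) varied most, and Nsun3 (0.0399), Elp2 (0.0524) and Dus1l (0.0565) least. Cdk5rap1 had 7.71, 5.21 and 4.09 CPM in KO and 4.53, 6.81 and 4.602 CPM in WT. KO 1 and WT 2 were its high libraries, so the difference within each genotype was larger than that between them. Read counting alone would give Cdk5rap1 an SD near 0.0983, and its own SD was 3.76 times that, the largest ratio of the 54. The spread exceeded 1.5 times the counting SD for 45 members and 2 times for 25, and the median ratio was 1.97. The added 0.5 CPM shrinks the spread at low levels but is not in the counting SD, so ratios of low members are underestimates.

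**Figure D4:**
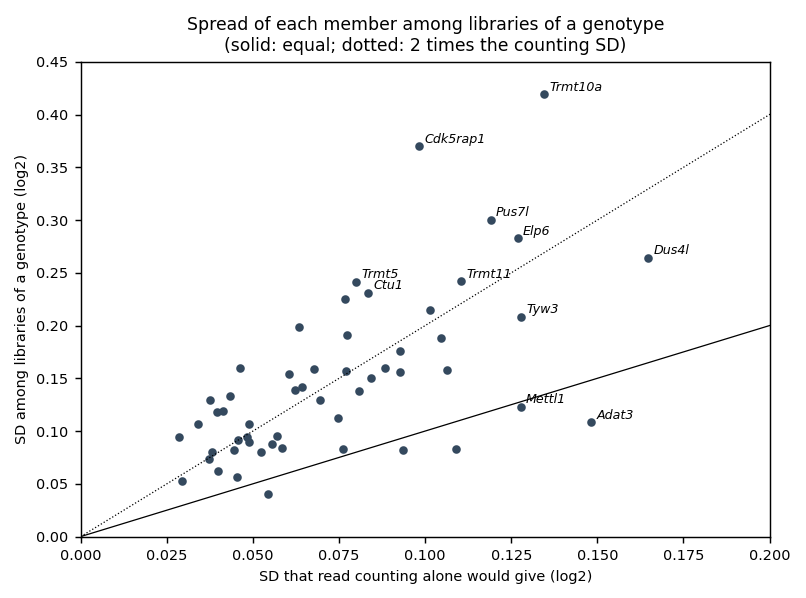
SD among libraries of a genotype (y axis, log2 scale) against the SD that read counting alone would give (x axis, log2 scale), with 1 point per gene, a solid line where both are equal and a dotted line at 2 times the counting SD. Trmt10a and Cdk5rap1 lie highest above the dotted line, and 25 of the 54 genes lie above it.

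Some members shared a high or low level in KO 1 and WT 2. Across genes, which are not independent replicates, the deviations of these libraries from their genotype mean correlated with r = 0.426. The values were -0.435 for KO 1 with WT 3, 0.36 for KO 3 with WT 3 and -0.342 for KO 3 with WT 2. Deviations within a genotype sum to 0, so these correlations are tied to each other. In both KO 1 and WT 2, 12 members were the highest of their genotype (22.2%, against 20% of all genes), among them Gtpbp3, Cdk5rap1, Dus3l, Tyw5, Wdr4, Qtrt1 and Trmt112. The lowest in both were 14 members (25.9%, against 20.9% of all genes), among them Pus7, Elp5, Dus4l, Mettl1, Nsun2, Nat10 and Thumpd1. Proliferation genes (30 listed) lay 0.44 and 0.40 below the mean of the 6 libraries on the log2 scale in KO 1 and WT 2, and neutrophil markers (11 listed) lay 0.56 and 0.35 below. Ribosome biogenesis genes (18 listed) lay 0.16 and 0.17 below. The 54 genes as a set moved by at most 0.03 in any library. The part of cell state and of other cells in the values of single members was not tested, and in bulk samples fewer cells of a type and less RNA per cell cannot be told apart.

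**Figure D5:**
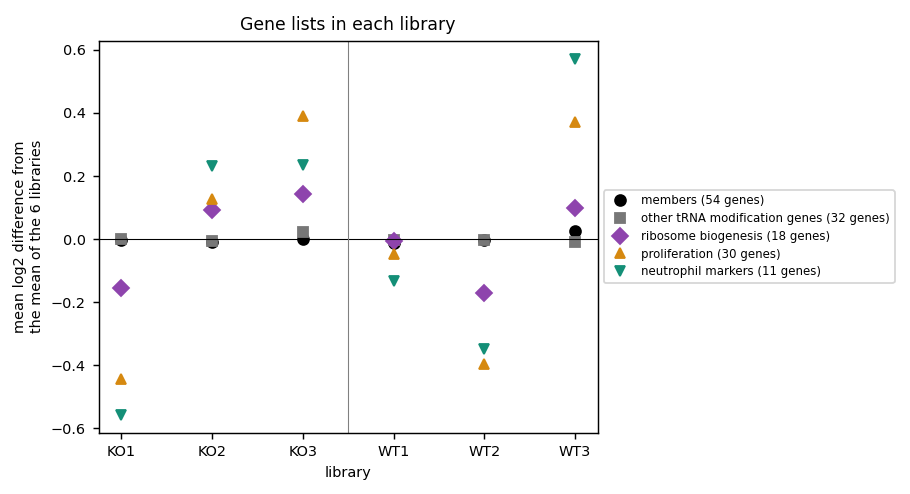
Mean log2 difference of each gene list from the mean of the 6 libraries (y axis) in each library (x axis; KO left and WT right of the line). The 54 genes and the other tRNA modification genes stay within 0.03 of 0, while proliferation genes and neutrophil markers are low in KO 1 and WT 2.

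For reference, 42 symbols of other tRNA modification genes and m1A writers were listed, some of them older names of the same gene, of which 36 were in the table and 35 were tested. Trmt61a was the only 1 of the 35 that passed, and it was lower in KO. Next in order of p were Pusl1, a pseudouridine synthase-like gene, with a log2 fold change of -0.36 (SE 0.17, edgeR adjusted p = 0.999949), and Tarbp1, a ribose methyltransferase, with 0.40 (SE 0.22, edgeR adjusted p = 0.999949). Without the m1A writers, 16 of 32 lay above 0 and 16 below, with a median of 0.00.

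Counts of some members are uncertain because their exons overlap those of other genes and the sources do not give how strands were counted. Exons of 20 members overlapped another gene, and for 7 the overlap covered over 20% of exon bases. Pus3 shared 97.8% of its exon bases with Hyls1 on the opposite strand, and Adat3 shared 95.04% with a same-strand gene model. The values for Ctu2 (45.5%, with Piezo1), Tyw5 (38.9%, with Maip1), Trmt112 (36.1%, with Prdx5), Yrdc (29.9%) and Trmt2a (22.4%, with Dgcr8) carry the same limit.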

How the data were processed

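Libraries were built from TRIzol-extracted total RNA (kit: VAHTS Universal V6), per the labels' protocols. Raw read counts per gene for 6 libraries were deposited by the authors. The tools were fastp, HISAT2 and HTSeq on build mm10, per the submitters' processing notes, with versions, annotation and strand setting not given in the sources used here. Genotypes came from the sample labels. No pair of replicate libraries agreed within sampling noise (chi-square per degree of freedom from 11.4 to 34.2), so each counted once.

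The counts were fitted with edgeR 4.0.16 (R 4.3.3): TMM factors, filterByExpr (minimum count 10), a quasi-likelihood fit (robust, legacy mode) and its F test for genotype. Benjamini-Hochberg adjustment ran over all 12605 genes tested (threshold 0.05), and the steps were tested on simulated data. The biological coefficient of variation was 0.122. SE is the size of the fold change on the log2 scale over the root of F. The counting SD was taken from the mean count.

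The members and lists were chosen with earlier results of these data known. Library values were given for members with an unadjusted p under 0.05 or no overlap, and for the member with the smallest p and the one with the highest level per length in each role. Those of Elp6 and Cdk5rap1 were added, and further genes named, once their values had been seen. Coordinates come from RefSeq GRCm38.p6 by Entrez ID and exon lengths from GENCODE. Alternatives were other normalizations, filters and tests (DESeq2 1.42.0, limma 3.58.1 voom), a replicate block and leaving out libraries. Genes outside the table, such as Trmt61b, were not analysed here.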

Additional observations from a re-analysis of the deposited data

How the results depend on the processing

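The number of members that passed the adjusted threshold was 0 in each of the 17 alternatives, with a smallest member adjusted p of 0.9105 (without KO 1). The number of all genes called was 16 with DESeq2 and 8 with the replicate block, against 4, and between 3 and 5 when 1 library was left out. Same-numbered KO and WT libraries deviated with r = 0.035, -0.186 and 0.36. The labels do not state whether the numbers pair them. These values cannot decide it, because deviations within a genotype are tied to each other. The replicate block changed the call of 0 members. Leaving out 1 library gave 1 to 2 members with an unadjusted p under 0.05 (2.36% to 5.34% of all genes) and 10 to 14 without overlap (15.6% to 21.6% of all genes), and the median log2 fold change of the members ran from -0.027 to 0.014. With both KO 1 and WT 2 left out, an alternative chosen after seeing the data, 17 members (31.5%, against 32.3% of all genes) did not overlap, the median log2 fold change was 0.0015 and that of Trmt112 was 0.067. The newer mode of edgeR was also added after seeing the data. Of 340 refits of the 20 members chosen by the rule (Elp6 and Cdk5rap1 were not refitted), 331 kept their direction and 9 reversed it. Each reversal came from a refit with libraries left out. Refits on all libraries use the same counts, so their kept directions say little. When 1 library was left out, the log2 fold change ran from -0.033 to 0.123 for Thumpd1, from -0.022 to 0.083 for Osgep, from -0.041 to 0.085 for Tyw1, from -0.066 to 0.039 for Mto1 and from -0.089 to 0.104 for Trmt112. Another 9 moved by over 1.5 times without reversing: Adat2 (-0.440 to -0.183), Dus3l (0.0032 to 0.169), Elp2 (0.0103 to 0.0740), Elp4 (0.119 to 0.284), Gtpbp3 (0.0068 to 0.212), Mettl1 (0.108 to 0.305), Pus1 (0.0944 to 0.225), Pus7 (0.127 to 0.279) and Tyw5 (-0.234 to -0.111). The other 6 stayed within 1.5 times. The cause was not tested. Dus4l had the fewest counts of the 54 genes.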
